A study of Mus musculus with 6 samples.

Results

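The late response of fibroblasts to TNFα was read as the ratio of 24 hr of TNFα to no treatment, gene by gene. The genes were protein coding RefSeq transcripts, with 1 transcript per gene symbol (the one with the highest mean). This gave 20275 genes from 25684 coding entries among 27794 entries in all. Of these genes, 6571 had a mean RPKM (reads per kilobase of transcript, scaled to the size of the library) above 1 over the 4 time points and were compared. That mean takes in the libraries after TNFα, the 24 hr one among them. A gene under 1 RPKM untreated therefore passed only through its values after TNFα.

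The untreated group and the 24 hr group were wildtype mouse embryonic fibroblasts (MEFs), primary cells of a C57BL/6x 129 background, taken from littermate embryos of 13.5 days and passaged 4 times. The 24 hr group received 20 ng/ml of TNFα, and the untreated group received none. Each of the 2 groups was 1 poly(A) RNA library out of 6 libraries in the series, the others being 1.5 hr and 6 hr of TNFα, an H3K4me3 ChIP (a histone mark of active promoters) and its input. The labels do not say how many embryos or dishes went into a library, and 1 label field of the 24 hr library describes chromatin immunoprecipitation, whereas everything else about it, from the title to the source of the library, refers to RNA.

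TNFα is an inflammatory cytokine that binds TNF receptors and frees NF-κB, a family of transcription factors that waits in the cytoplasm bound to IκB proteins. NF-κB turns on chemokines, cytokines and adhesion molecules, and also its own inhibitors, among them IκBα and A20, so that its activity comes in waves. Fibroblasts are both a target of TNFα and the main makers of collagen and elastic fibre, and inflammatory cytokines are known to alter the balance between matrix synthesis and matrix breakdown in them.

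Each library has 2 columns of values, R1 and R2, which scattered less than independent counts would (in genes of 4 to 40 estimated reads the mean squared difference over the sum was between 0.489 and 0.796, where independent counts give 1). They were therefore taken as 2 views of 1 library and not as replicates, so the comparison has no replicate check and no test was made. A gene was called higher or lower at 24 hr when the ratio of the mean of R1 and R2 was at least 2-fold, after the log2 ratios had been centred on the median over the 6571 genes, which was 0.11 before centring. The 2 columns gave centred log2 ratios within 0.25 of each other for 93.3% of genes. In 23 genes they differed by more than 1, and in 0 genes did they pass 2-fold in opposite directions. The median gene had about 569 reads in the untreated R1 column and 696 in the 24 hr R1 column, by an estimate from the smallest steps in the values.

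The fibroblast label was set against markers. Of 10 fibroblast markers, 8 were above the filter, with summed RPKM of 1139 and 1099 in the untreated columns and 725 and 681 at 24 hr. Among them Col1a1 and Pdgfrb were lower at 24 hr and Vim, the intermediate filament vimentin, was higher, with a centred log2 ratio of 1.38. Of 11 macrophage and leukocyte markers, 6 were above the filter, with summed RPKM over the list of 67.9 and 67.4 untreated and 117 and 114 at 24 hr, and the T cell marker Cd3e was listed at 0 at both times. Endothelial and neural marker lists summed to at most 2.82 in every column, and the epithelial list to at most 3.52.

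The bases just upstream of the genes with the largest ratios at 24 hr were searched for the pattern that NF-κB recognises. Of the 12 genes furthest above the untreated level at 24 hr, 8 have an entry in the RefSeq promoter table of GRCm38.p6, and 5 of these hold this κB motif in the 250 bases before the start. The first 4 of them in order of ratio are printed here, 5′ to 3′ on the strand of the gene, with the κB match in capitals. In that build the stretches are chr1:83116516-83116765 on the plus strand for Ccl20, chr5:90903649-90903898 on the plus strand for Cxcl2, chr10:19015411-19015660 on the minus strand for Tnfaip3 and chr12:55492648-55492897 on the minus strand for Nfkbia. The 4 stretches were taken by rank among the genes with the motif. They come from chemokine genes (Ccl20, Cxcl2) and from inhibitors of NF-κB itself (Tnfaip3, Nfkbia). All 4 genes had a higher mean RPKM at 1.5 hr than at 24 hr.
Ccl20: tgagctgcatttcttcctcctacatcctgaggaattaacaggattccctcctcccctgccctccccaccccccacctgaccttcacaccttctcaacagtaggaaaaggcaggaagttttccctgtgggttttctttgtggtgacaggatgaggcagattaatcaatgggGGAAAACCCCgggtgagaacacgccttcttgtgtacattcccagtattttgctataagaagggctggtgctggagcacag
Cxcl2: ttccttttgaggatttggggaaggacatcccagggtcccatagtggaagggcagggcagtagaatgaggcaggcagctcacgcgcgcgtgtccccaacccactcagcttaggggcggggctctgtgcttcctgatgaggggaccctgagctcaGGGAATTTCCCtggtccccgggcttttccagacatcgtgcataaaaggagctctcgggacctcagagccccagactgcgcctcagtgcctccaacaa
Tnfaip3: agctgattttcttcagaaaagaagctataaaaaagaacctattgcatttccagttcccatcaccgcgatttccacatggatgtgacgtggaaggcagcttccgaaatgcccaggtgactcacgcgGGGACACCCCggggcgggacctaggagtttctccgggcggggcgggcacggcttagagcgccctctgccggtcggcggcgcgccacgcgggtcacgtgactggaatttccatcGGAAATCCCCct
Nfkbia: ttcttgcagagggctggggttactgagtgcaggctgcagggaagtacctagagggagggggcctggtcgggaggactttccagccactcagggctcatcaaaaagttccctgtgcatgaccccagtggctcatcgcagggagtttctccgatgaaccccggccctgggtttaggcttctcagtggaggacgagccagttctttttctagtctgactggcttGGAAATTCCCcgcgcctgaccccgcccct

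Counted from the start site, the Ccl20 match begins at -80, the Nfkbia match at -29 and the Tnfaip3 matches at -125 and -12. The 2 matches of Cxcl2, at -97 and -96, lie on opposite strands and overlap, which makes 1 site of them. Tnfaip3 has another listed start, whose 250 bases hold no match. Of the same 8 genes, 3 hold an interferon-stimulated response element and 4 an AP-1 motif. These 8 are under 80% of the 12 genes, so the counts describe these promoters and not the set. A match is a stretch of letters and not a measured binding site.

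Over larger sets the share with a κB motif was alike in higher and lower genes. It stood before 6.07% of the genes at least 2-fold higher (45 of 741 with a promoter entry), before 5.39% of those at least 2-fold lower (44 of 817) and before 5.62% of all genes above the filter (300 of 5340). Over all promoters of the table the share was 3.90%. The response element, GAAANNGAAA, was found on either strand before 4.45% of the higher genes, 2.33% of the lower genes and 3.01% of all genes above the filter. The AP-1 motif TGAGTCA gave 4.99%, 3.79% and 4.04% in the same order. For the 22 genes at least 8-fold higher, 16 have a promoter entry, which is under 80%, so a check of motifs in them is void.

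At 24 hr, 925 genes (14.1% of those compared) stood at least 2-fold above the untreated level, 1000 genes (15.2%) stood at least 2-fold below it, and 4646 were neither. Genes under 1 RPKM untreated passed the filter only through values after TNFα, and 369 of them were higher and 0 lower. The counts of higher genes, in the gene lists too, therefore depend in part on the filter. The genes furthest above the untreated level included chemokines, the acute-phase gene Saa3, the NF-κB inhibitors Tnfaip3 and Nfkbia, and the metalloproteinase Mmp10. Those furthest below it included elastin, apolipoproteins, a proteoglycan and genes of macrophage type. The middle of the distribution was broad, with quartiles of -0.67 and 0.64 on the centred log2 scale. At least 4-fold differences were found for 98 genes above and 134 below, and at least 8-fold differences for 22 above and 17 below. Each of the columns alone passed 2-fold for 840 of the higher and 942 of the lower genes. When both libraries were instead scaled to the same sum over coding genes, the split was 1172 above and 785 below. The genes nearest to the threshold were Pdcd2l and Zeb2 just inside on the higher side and Mybl2 and Des just inside on the lower side, with Rac1, Rpn1, Rab11fip5 and Micall1 just outside.

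**Figure D1:**
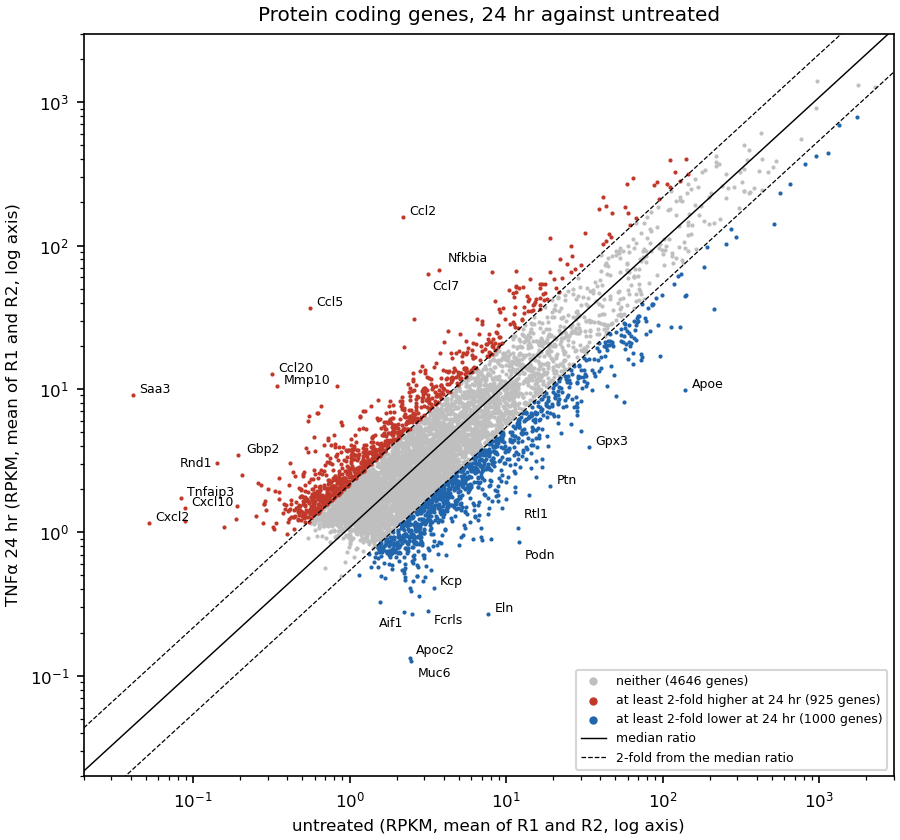
Each point is 1 of the 6571 protein coding genes above the filter, with its untreated RPKM on the x axis and its 24 hr RPKM on the y axis (means of R1 and R2, both log axes). The solid line is the median ratio and the dashed lines lie 2-fold from it. Red points are the 925 higher genes, blue points the 1000 lower genes, and the 12 largest ratios on each side are named, apart from A430110N23Rik, left without a label for space. Saa3 lies furthest above the line and Eln furthest below it.

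GC content moved with the ratio across the whole transcriptome, and this stands beside every count that follows. Among the 10 bins of equal size by GC content of the longest coding transcript, the median centred log2 ratio was 0.83 in the bin of lowest GC (median 42.4% GC) and went down to -0.91 in the bin of highest GC (60.7% GC). The share of genes at least 2-fold higher went from 40.6% to 1.24% over the same bins, and that of genes at least 2-fold lower from 1.55% to 47.0%. The higher genes had a median GC content of 47.4% and the lower genes one of 57.5%, against 52.6% in the genes that were neither. The 1.5 hr library, set against the same untreated library, had medians of 0.92 and -1.03 in these end bins, and the 6 hr library 0.60 and -0.11. When ratios were centred within 20 bins of GC content, 663 genes (10.3%) passed 2-fold above and 579 genes (8.98%) passed it below. These held 428 of the 925 higher genes (46.3%) and 427 of the 1000 lower genes (42.7%). The value after this centring is called GC-centred, and it is given wherever it ends a 2-fold difference. The part of GC content in the ratios was not tested.

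**Figure D2:**
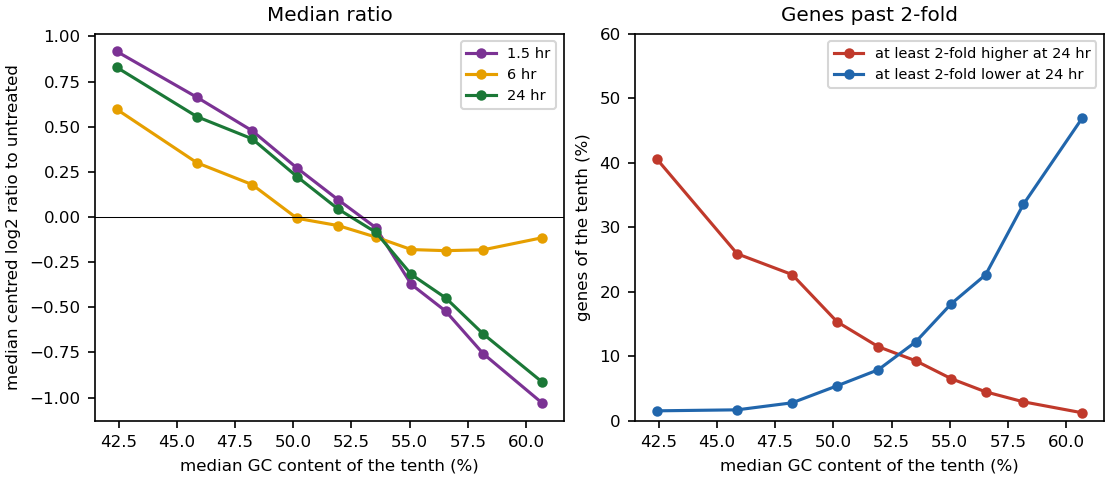
Genes above the filter were sorted into 10 bins of GC content, and the x axis gives the median GC content of each bin in percent. On the left, the y axis is the median centred log2 ratio to the untreated library at 1.5, 6 and 24 hr. On the right, it is the percentage of genes in the bin at least 2-fold higher (red) or lower (blue) at 24 hr. The 24 hr median crosses from 0.83 to -0.91 along the axis.

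The largest difference was in Saa3, which encodes an acute-phase serum amyloid A protein (mm9, chr7:53967368-53971046). Its RPKM was 0.0413 and 0.0409 in the untreated columns, which is about 2 reads in R1, and 9.27 and 8.82 at 24 hr, about 519 reads. The centred log2 ratio was 7.67, with an exact 95% interval of 5.81 to 10.72 that covers counting error only. Its value was higher at each later time, on the centred scale too, with mean RPKM of 0.736 at 1.5 hr and 1.61 at 6 hr. The other acute-phase gene above the filter, Ptx3, a pentraxin, had 1.49 and 1.40 untreated and 4.92 and 4.63 at 24 hr, a centred log2 ratio of 1.61.

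Of the CC chemokines, which draw monocytes and T cells, 8 of the 18 with values were above the filter. Of these 8, 7 were at least 2-fold higher and 0 lower, with a median centred log2 ratio of 3.77. Ccl5 and Ccl20, under 1 RPKM untreated, passed the filter only through values after TNFα, so the count leans to higher members. Ccl2, the main monocyte attractant (chr11:81849073-81850955), had RPKM of 1.38 and 2.98 untreated and 95.6 and 219.6 at 24 hr. Its R2 column was more than 2-fold above R1 at both times, so the centred log2 ratio of 6.06 hardly depends on the column while the level does. Ccl5, a T cell attractant (chr11:83339280-83344020), had 0.489 and 0.622 untreated and 33.6 and 39.5 at 24 hr, a centred log2 ratio of 5.93. Ccl20, the ligand of CCR6 (chr1:83113341-83115742), had 0.289 and 0.352 untreated and 13.7 and 11.8 at 24 hr, a ratio of 5.20 on the same scale. Ccl7, a neighbour of Ccl2 on chromosome 11, had a ratio of 4.22. The remaining higher members were Ccl8, Ccl12 and Ccl9, with ratios of 3.33, 2.76 and 2.24. The exception was Ccl27a, at -0.82.

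These chemokines took different courses. The mean RPKM of Ccl5 went from 18.6 at 1.5 hr through 26.4 at 6 hr to 36.6, whereas its centred log2 ratios for 1.5, 6 and 24 hr were 4.61, 6.31 and 5.93, the highest at 6 hr. Ccl20 had its highest RPKM at 1.5 hr, 27.4, against 12.8 at 24 hr, and its highest centred ratio there as well, 5.96. Ccl2 averaged 211.7 at 1.5 hr and 157.6 at 24 hr, with 58.0 between them, and the columns overlapped between 1.5 and 24 hr. RPKM at 6 hr were low across the table, with a median log2 ratio to the untreated library of -0.74 before centring, so a dip at 6 hr in uncentred values is shared by most genes.

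Among CXC and CX3C chemokines, which chiefly draw neutrophils and lymphocytes, 4 of 8 were at least 2-fold higher and 0 lower, with a median of 1.49. Cxcl2, a neutrophil attractant, had 0.0412 and 0.0636 untreated, about 5 reads in R1, and 1.27 and 1.05 at 24 hr, about 194 reads. The centred log2 ratio was 4.35, with an exact interval of 3.69 to 6.57. Cxcl10, an interferon-inducible attractant of T cells, had 0.0923 and 0.0862 untreated, about 7 reads, and 1.49 and 1.44 at 24 hr, a ratio of 3.93 (exact interval 2.90 to 5.32). It had stood at 8.90 at 1.5 hr. Cxcl1, another neutrophil attractant, had a ratio of 2.31. Cxcl12, the homeostatic chemokine of stromal cells and the one with the highest level of the group, was at 5.66 and 6.19 untreated and 7.10 and 7.35 at 24 hr, a ratio of 0.18.

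**Figure D3:**
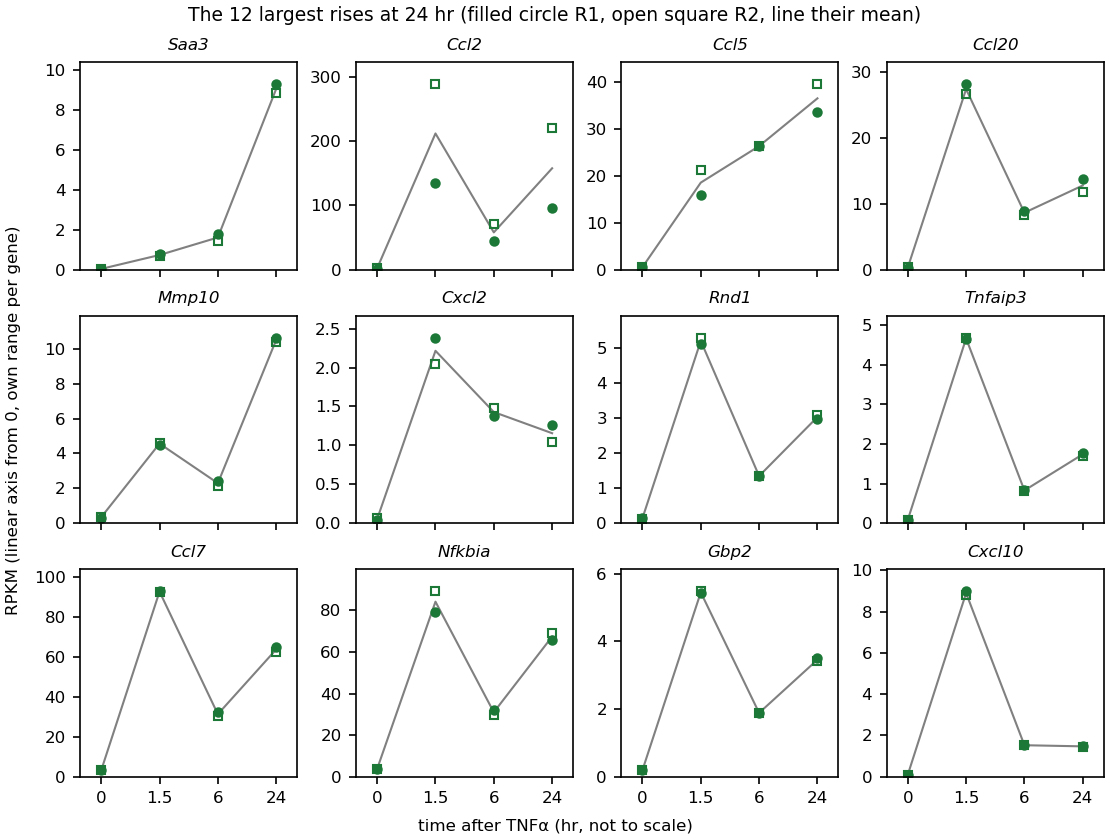
Each panel is 1 of the 12 genes with the largest centred ratio at 24 hr, with time after TNFα on the x axis (not to scale) and RPKM on a linear y axis from 0, with its own range per gene. Filled circles are the R1 column, open squares the R2 column and the line their mean, from 1 library per time. In RPKM, Saa3, Ccl5 and Mmp10 are highest at 24 hr and the other 9 at 1.5 hr, whereas the centred ratios of Ccl5 and Cxcl2 are highest at 6 hr (6.31 and 5.51) and that of Nfkbia at 24 hr (4.07 against 4.04 at 1.5 hr).

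Among the inhibitors that NF-κB induces against itself, several remained above the untreated level. Of 10 members above the filter, 5 were at least 2-fold higher and 1 lower, with a median of 0.94, and after GC centring 7 were higher and 0 lower. Tnfaip3, the ubiquitin-editing enzyme A20 (chr10:18720716-18735463), had 0.0850 and 0.0816 untreated and 1.77 and 1.71 at 24 hr, a centred log2 ratio of 4.27. Nfkbia, which encodes IκBα (chr12:56590398-56593634), had 3.62 and 3.84 untreated and 65.7 and 69.1 at 24 hr, a ratio of 4.07. Nfkbie, which encodes IκBε, had a ratio of 2.18. Nfkbib and Tnip1, an IκB and a partner of A20, had ratios of 1.44 and 1.31, whereas Tnip2 was at -1.02, and -0.88 GC-centred.

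All 4 NF-κB subunits above the filter had positive centred ratios, but only 1 was at least 2-fold higher. None was lower, the median was 0.83, and 3 were higher after GC centring. Relb, a subunit of the slower noncanonical arm, had 1.68 and 1.63 untreated and 5.06 and 4.46 at 24 hr, a ratio of 1.42. Nfkb2 and Nfkb1, which encode the precursors p100 and p105, had ratios of 0.90 and 0.77, and 1.65 and 0.81 GC-centred. Rela, the subunit p65, had a ratio of 0.31, and 1.05 GC-centred.

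The receptors and adaptors that carry the TNF signal showed no common direction, with 3 of 13 higher, 2 lower and a median of -0.08. The lower share was near the 15.2% of all genes. After GC centring 1 was higher and 0 lower, and the median turned to 0.10. Birc3, the ubiquitin ligase cIAP2, had 0.369 and 0.337 untreated and 1.98 and 1.82 at 24 hr, a ratio of 2.32. Tab2 and Map3k7 (TAK1) were at 1.23 and 1.01, and 0.72 and 0.38 GC-centred. Tab1, a subunit of the TAK1 kinase complex, was at -1.55, and -0.98 GC-centred. Rnf31, the catalytic subunit of the linear ubiquitin ligase, was at -1.32, and -0.59 GC-centred. Its partner Rbck1 was at -0.65, and 0.10 GC-centred. Tnfrsf1a, the receptor for TNF in most cells, was at -0.08.

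Cytokine genes were few above the filter. Lif and Csf1, which act on stem cells and on macrophages, had ratios of 2.27 and 1.56. Csf1 went from 6.65 and 6.19 to 21.3 and 19.7 RPKM. Il1rn, the receptor antagonist of IL-1, was at -0.15. Il6, a target of NF-κB that the study names, was under the filter, listed at 0 and 0.0133 untreated and at 0.239 and 0.204 at 24 hr.

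Adhesion molecules that leukocytes bind were higher in 3 of 5 cases, with 0 lower and a median of 1.82. Vcam1 had 0.487 and 0.592 untreated and 5.31 and 6.72 at 24 hr, a ratio of 3.37. Cd44, the hyaluronan receptor, and Icam1 had ratios of 2.08 and 1.82.

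Interferon-stimulated genes, the antiviral set that type I and type II interferons induce, had many members above the untreated level. Of 20 above the filter, 12 were at least 2-fold higher and 0 lower, with a median of 1.23, and after GC centring 9 were higher, with a median of 0.98. Gbp2 and Gbp3, guanylate-binding proteins of host defence, had ratios of 4.04 and 2.68, and Irgm1, an immunity-related GTPase, one of 2.77. Gbp2 had 0.193 and 0.195 untreated, about 29 reads in R1, and 3.5 and 3.41 at 24 hr. Ifitm3, the member with the highest level, was at 162.4 and 158.5 untreated and 196.8 and 186.9 at 24 hr, a ratio of 0.15.

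The machinery of MHC class I, which shows peptides to T cells, had 7 of 14 members at least 2-fold higher and 0 lower, with a median of 1.06 (0.94 GC-centred). H2-K1, a class I heavy chain, had 4.18 and 3.79 untreated and 21.8 and 20.8 at 24 hr, a ratio of 2.31. B2m, the shared light chain, had 35.6 and 43.3 untreated and 162.4 and 195.1 at 24 hr, a ratio of 2.07. Psmb8, a subunit of the immunoproteasome, had a ratio of 1.56. Class I heavy chain genes are near copies of each other, and how the authors assigned reads that fit several of them is not given in the sources used here.

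Of the enzymes that make inflammatory mediators, some passed 2-fold. In prostaglandin synthesis 3 of 6 were at least 2-fold higher and 0 lower, and 2 were higher after GC centring. Ptges, the terminal prostaglandin E synthase, had 0.648 and 0.720 untreated and 1.95 and 2.14 at 24 hr, a ratio of 1.47. Ptgs2, the inducible cyclooxygenase, had a ratio of 1.45 (0.56 GC-centred), and Pla2g4a, which frees arachidonic acid, one of 1.05 (0.15 GC-centred). In arginine metabolism 2 of 6 were higher and 0 lower, and 1 was higher after GC centring. Ass1, which makes arginine from citrulline by way of argininosuccinate, went from 12.2 and 10.8 to 74.2 and 58.9, a ratio of 2.42, and Slc7a2, an arginine transporter, had 1.17 (0.41 GC-centred).

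Antioxidant genes went both ways, with 7 of 17 higher and 2 lower (8 and 1 after GC centring). Sod2, the mitochondrial superoxide dismutase and a known NF-κB target, had 0.610 and 0.585 untreated and 3.78 and 3.65 at 24 hr, a ratio of 2.52. Slc7a11, the cystine transporter that feeds glutathione synthesis, had a ratio of 2.40 in spite of R1 values that were more than 2-fold above R2 at both times. Gpx3, the secreted glutathione peroxidase, went the other way, from 33.9 and 33.5 to 3.93 and 3.89, a ratio of -3.22.

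Immediate-early genes, usually known for brief induction, had 5 of 14 members at least 2-fold higher at 24 hr and 1 lower (7 and 0 after GC centring). Junb, an AP-1 subunit, had 2.54 and 2.54 untreated and 11.4 and 11.2 at 24 hr, a ratio of 2.05 (3.17 GC-centred). Ier3 and Klf6 had ratios of 1.81 and 1.6, the latter 0.71 GC-centred. Jund, the AP-1 subunit with the highest level, was at -1.48 (-0.35 GC-centred). Gadd45b, a stress gene that the study names, was at 0.48.

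Genes of apoptosis had 6 of 15 members higher and 1 lower (4 and 1 after GC centring), from both the killing and the protecting side. Bid, which links death receptors to mitochondria, and Fas, a death receptor, had ratios of 2.63 and 2.61. Bid went from 0.528 and 0.556 to 3.56 and 3.71. Bcl2a1a, Bcl2a1b and Bcl2a1d, protective members of the BCL2 family, had ratios of 1.49, 1.27 and 1.43 (0.73, 0.51 and 0.68 GC-centred), and as near-identical copies they may share reads. Bbc3, the lower gene, was at -1.03, and 0.10 GC-centred.

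Among the 31 gene lists, collagen chains and elastic fibre genes of the extracellular matrix had the lowest medians before GC centring. Of 17 collagen chains above the filter, 10 were at least 2-fold lower and 0 higher, with a median centred log2 ratio of -1.25, and after GC centring 8 were lower, with a median of -0.88. Col1a1, the main chain of type I collagen, had RPKM of 527.2 and 500.9 untreated and 148.5 and 135.9 at 24 hr, a ratio of -1.97. Col6a2, a chain of the microfibrillar type VI collagen, had 94.5 and 97.4 untreated and 16.1 and 17.9 at 24 hr, a ratio of -2.61. Col27a1, a fibrillar collagen of cartilage, was at -2.29. Col1a2, the partner chain of Col1a1, was at -0.73. The 3 chains named here as lower, Col1a1, Col6a2 and Col27a1, were among the 8 after GC centring, at -1.23, -2.20 and -1.54.

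Elastic fibre genes had 8 of 19 members lower and 0 higher, with a median of -0.96, but after GC centring 3 were lower and the median was -0.42. Eln, which encodes elastin (chr5:135179651-135223111), lay furthest below the untreated level of all genes compared. It had 7.60 and 7.75 untreated, 0.280 and 0.261 at 24 hr, and about 1759 and 76 reads in the R1 columns, a centred log2 ratio of -4.94 and a GC-centred ratio of -3.81. Fbn2, a fibrillin of the microfibril scaffold, was at -2.52 and -2.62 GC-centred. Ltbp3, which holds latent TGFβ in the matrix, was at -1.80, and -0.67 GC-centred. The gene with the highest level in the group, Fbln2, was at 75.8 and 68.9 untreated and 48.6 and 42.9 at 24 hr, a ratio of -0.77. Lox, the enzyme that crosslinks elastin and collagen, had a ratio of 0.63.

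Small leucine-rich proteoglycans, which decorate collagen fibrils, had 1 of 7 members higher and 2 lower, with a median of -0.83. The higher share was near the 14.1% of all genes. After GC centring 0 were higher and 4 lower, with a median of -1.68. Podn (podocan) had 12.6 and 11.6 untreated and 0.866 and 0.846 at 24 hr, a ratio of -3.93, and Fmod (fibromodulin) 2.26 and 2.18 untreated and 0.277 and 0.280 at 24 hr, a ratio of -3.11. Dcn (decorin) was the higher member, with 2.54 and 2.81 untreated and 7.36 and 7.90 at 24 hr, a ratio of 1.40 (0.64 GC-centred). Bgn (biglycan), the most abundant, was at -0.94.

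Enzymes that break matrix down, and their inhibitors, went both ways. Of 15 metalloproteinases and their inhibitors, 5 were at least 2-fold higher and 3 lower (5 and 1 after GC centring). The median was -0.11, and 0.13 GC-centred. Mmp10, stromelysin-2 (chr9:7502352-7510238), had 0.318 and 0.371 untreated and 10.6 and 10.4 at 24 hr, a ratio of 4.82. Mmp3, stromelysin-1, had 2.58 and 2.60 untreated and 27.5 and 34.5 at 24 hr, a ratio of 3.47, and Mmp9, a gelatinase, had 0.558 and 0.541 untreated and 6.24 and 6.67 at 24 hr, a ratio of 3.44. All 3 had lower values at 1.5 hr than at 24 hr, for example 4.56 for Mmp10 and 7.48 for Mmp3. Timp1, an inhibitor of these enzymes, was at 111.2 and 100.8 untreated and 305.0 and 231.5 at 24 hr, a ratio of 1.23. Mmp13, a collagenase, was at 3.43 and Mmp2, the constitutive gelatinase of fibroblasts, at -1.28 (-0.98 GC-centred).

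**Figure D4:**
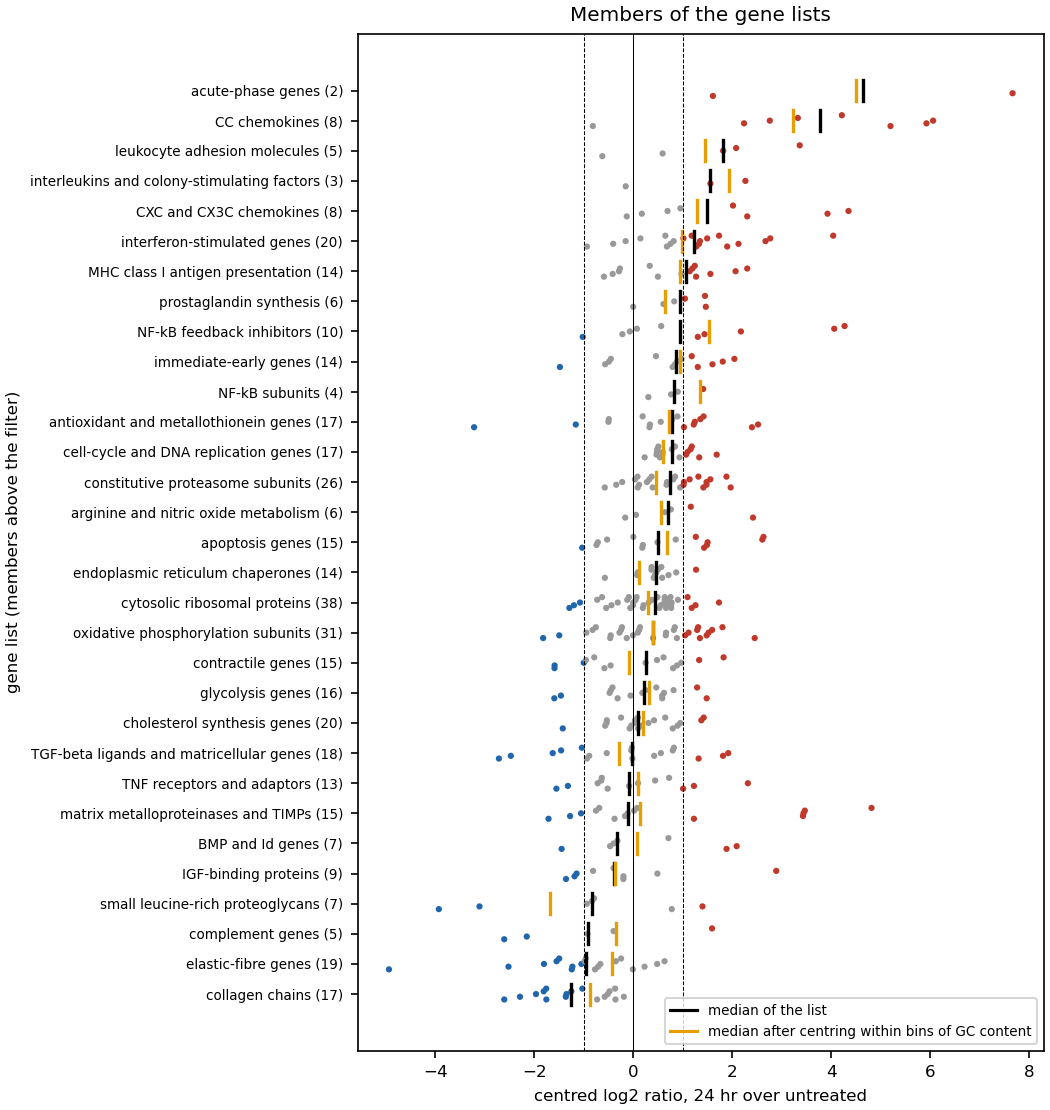
Each row is 1 of 31 gene lists, with the number of members above the filter in brackets, and the x axis is the centred log2 ratio of 24 hr over untreated. Points are genes, red when at least 2-fold higher and blue when at least 2-fold lower, with dashed lines at 2-fold. Black bars are the medians of the lists and orange bars the medians after centring within bins of GC content. Acute-phase genes and CC chemokines have the highest medians (4.64 and 3.77) and collagen chains the lowest (-1.25).

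Matricellular and TGFβ genes were divided, with 3 of 18 higher, near the share of all genes, and 5 lower (3 and 6 after GC centring). Nov and Wisp2, secreted proteins of the CCN family, were at -2.71 and -2.47, and Wisp2 went from 14.6 and 14.4 to 2.87 and 2.78. Ctgf and Cyr61, of the same family, lay on the other side, at 1.82 and 1.32. Spp1 (osteopontin), the most abundant of the list, was at 0.82.

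Contractile genes had 2 of 15 members higher and 3 lower (3 and 1 after GC centring), shares close to the 14.1% and 15.2% of all genes. Actn1, α-actinin, went from a mean of 25.9 untreated to 99.4 at 24 hr, a ratio of 1.83. Myh11, smooth muscle myosin, and Smtn, smoothelin, were both at -1.59, the latter at -0.84 GC-centred. Acta2, the α-smooth muscle actin of myofibroblasts, was at 331.3 and 332.7 untreated and 491.8 and 509.9 at 24 hr, a ratio of 0.48 (-0.02 GC-centred).

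Secreted regulators of growth factors held some large differences. Igfbp7, an IGF-binding protein of the matrix, had 8.41 and 7.92 untreated and 67.7 and 63.3 at 24 hr, a ratio of 2.89, and was the 1 higher gene among 9, of which 3 were lower (1 and 1 after GC centring). Igfbp4 and Igfbp6 were at -1.36 and -1.19, and -0.62 and -0.06 GC-centred. In the BMP pathway 2 of 7 genes were higher and 1 lower (2 and 0 after GC centring). The lower share before GC centring was near the 15.2% of all genes. Grem1, a BMP antagonist, had a ratio of 1.89, and Bmp1, a procollagen proteinase, was at -1.45 (-0.71 GC-centred).

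Below the untreated level, genes of macrophage type and of lipid transport stood beside elastin. Apoe (chr7:20281458-20284515), the carrier of cholesterol that macrophages and stromal cells secrete, went from 136.2 and 143.1 to 10.0 and 9.49, a ratio of -3.95. Apoc2, a neighbour in the same gene cluster and an activator of lipoprotein lipase, had a ratio of -4.31. Fcrls, an Fc receptor-like gene of macrophages and microglia, had 3.17 and 3.15 untreated and 0.272 and 0.293 at 24 hr, a ratio of -3.60, and Aif1 (IBA1), another marker of these cells, one of -3.34. Fcrls was still at 3.31 at 1.5 hr and then at 1.04 at 6 hr. C1qa and C1qb, chains of complement C1q that macrophages make, went from 51.3 and 49.8 to 9.24 and 8.67 and from 71.7 and 73.3 to 17.8 and 17.5, with ratios of -2.61 and -2.15. C1s, a serine protease of the same complex that fibroblasts make, was at 1.59.

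The macrophage and leukocyte markers did not move together with these genes. Cd14 and Lyz2 were at least 2-fold higher, at 2.52 and 1.56, and Fcer1g, Csf1r and Cd68 at least 2-fold lower, at -1.65, -1.36 and -1.07 (Csf1r -0.99 GC-centred). Tyrobp was at 0.33. The summed level of the list was 67.4 to 67.9 RPKM untreated and 114 to 117 at 24 hr, of which Lyz2 made up the most. In bulk RNA, fewer cells of a type and less RNA per cell cannot be told apart, and the part of macrophages in these values was not tested.

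**Figure D5:**
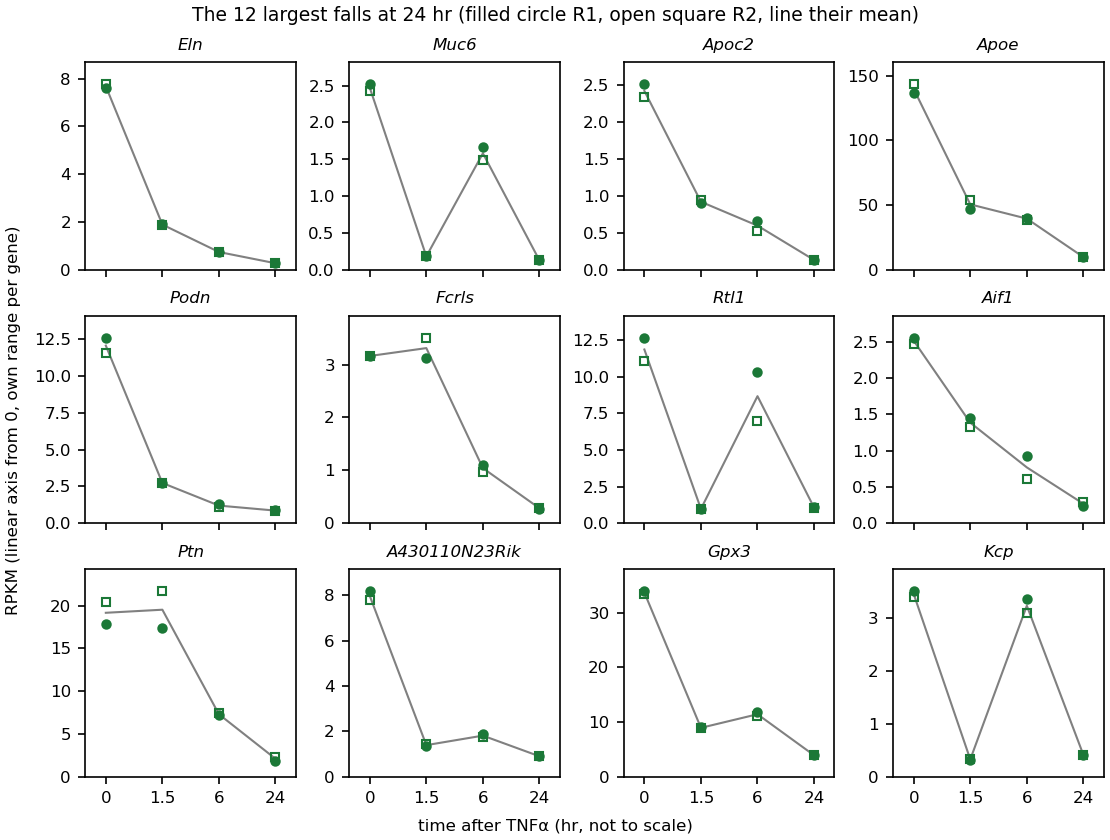
Each panel is 1 of the 12 genes with the lowest centred ratio at 24 hr, with time after TNFα on the x axis (not to scale) and RPKM on a linear y axis from 0, with its own range per gene. Filled circles are the R1 column, open squares the R2 column and the line their mean, from 1 library per time. Muc6, Rtl1 and Kcp are high in the untreated and 6 hr libraries and low at 1.5 and 24 hr, whereas Eln, Apoe and Aif1 have a lower RPKM at each later time. On the centred scale, Apoe and Aif1 are at -1.08 and -0.97 at 6 hr, above their -1.92 and -1.31 at 1.5 hr.

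The other genes with the lowest ratios differed in their courses. Ptn, the heparin-binding growth factor pleiotrophin, had 17.9 and 20.5 untreated and 1.85 and 2.33 at 24 hr, a ratio of -3.31, and was still at 19.5 at 1.5 hr. Muc6, a gel-forming mucin, had 2.51 and 2.42 untreated, 0.125 and 0.129 at 24 hr, and means of 0.181 at 1.5 hr and 1.58 at 6 hr. Rtl1, an imprinted gene derived from a retrotransposon, and Kcp, a modulator of BMP signalling, showed the same order, with centred log2 ratios at 24 hr of -3.58 and -3.18, at 1.5 hr of -4.05 and -3.86, and at 6 hr of 0.29 and 0.65, all set against the same untreated library. Their part in the pattern of GC content was not tested; their transcripts had 54.6% and 62.3% GC. A430110N23Rik had centred ratios of -2.97, -1.40 and -3.26 at 1.5, 6 and 24 hr. Mif4gd, named after its values were seen, had a mean ratio of -3.0 that rests on the R2 column, with 1.26 and 12.6 untreated and 0.960 and 0.905 at 24 hr.

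Rnd1, a small GTPase, stood among the 12 largest ratios, with 0.154 and 0.132 untreated and 2.99 and 3.09 at 24 hr, a ratio of 4.30. Cdkn2a, which encodes the cell cycle inhibitors p16INK4a and p19ARF and which the study names, had 8.67 and 8.41 untreated and 43.5 and 38.5 at 24 hr, a ratio of 2.15. Genes of the cell cycle and of DNA replication had 6 of 17 members higher and 0 lower, and 3 higher after GC centring. Cdk1, the mitotic kinase, was at 1.69, Ccnb2 at 1.33 and Pcna at 1.19, with Ccnb2 at 0.83 and Pcna at 0.55 GC-centred. Mki67, the proliferation marker with the highest level of the list, was at 0.49.

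Housekeeping pathways had smaller medians, and many of their differences ended after GC centring. Of 26 constitutive proteasome subunits, 10 were at least 2-fold higher and 0 lower, but 3 were higher after GC centring. That last share was near the 10.3% of all genes after GC centring. Psma5, a ring subunit of the core, was at 1.97 and 1.47 GC-centred, and Psma3 at 1.89 and 0.99. Of 31 subunits of oxidative phosphorylation, 10 were higher and 2 lower (7 and 3 after GC centring). Ndufa1, of complex I, was at 2.46 and Ndufa2, of the same complex, at -1.82, both past 2-fold after GC centring. Of 38 cytosolic ribosomal proteins, 4 were higher and 3 lower (5 and 1 after GC centring), with Rpl27 at 1.74 and Rps15 at -1.29 (-0.16 GC-centred). Before GC centring both shares were under the 14.1% and 15.2% of all genes. Ribosomal protein genes and Gapdh have many processed pseudogenes that can share their reads.

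Glycolysis had 2 of 16 members higher and 2 lower (4 and 1 after GC centring), again close to the shares of all genes. Ldha, lactate dehydrogenase A, went from 25.4 and 23.8 to 78.2 and 70.6, a ratio of 1.49, and Eno2 and Pfkl were at -1.59 and -1.46 (Pfkl -0.97 GC-centred). Cholesterol synthesis had 2 of 20 higher and 1 lower, and none of the 20 passed 2-fold after GC centring, with GC-centred values of 0.80 for Nsdhl, 0.62 for Sc5d and -0.93 for Pmvk. Before GC centring both its shares were under those of all genes. Among 14 chaperones of the endoplasmic reticulum, 1 was higher and 0 lower, shares also under those of all genes. Pdia3, which also loads MHC class I, was the higher member, at 1.27, and 0.75 GC-centred. After GC centring 1 other member was higher and 0 lower. Hspa5 (BiP), the sentinel of the unfolded protein response, was at 0.87.

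Of the 13704 genes under the filter, 490 were listed at 0 in both untreated columns and above 0 at 24 hr. The reverse case, above 0 untreated and 0 at 24 hr, was not counted, so the 490 show no direction. With the filter removed, more genes passed 2-fold on the lower side (3986) than on the higher side (2529). Among the 490, the highest at 24 hr was Tnip3, a binding partner of A20, with 0.382 and 0.407 RPKM, about 152 reads in R1. Against a floor of 3 reads in the untreated R1 column it was at least 39.9-fold higher. Irg1, which makes itaconate in activated macrophages, had 0.281 and 0.290, at least 20.5-fold higher by the same floor. The others among the 5 highest, 9530008L14Rik, Cetn4 and 2010005H15Rik, had 24 hr means between 0.109 and 0.288.

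The H3K4me3 ChIP of untreated MEFs shows the state of the promoters before TNFα. A peak lay 1 kb or less from the GENCODE start of 87.4% of genes later higher (790 of 904 with a start in the annotation, exact interval 85.1% to 89.5%), of 79.7% of genes later lower (786 of 986, 77.1% to 82.2%) and of 91.1% of genes that were neither (4147 of 4553). Among genes with an untreated RPKM of 5 and above, which pass the filter whatever their later values, the share was 88.8% for higher genes (135 of 152, exact interval 82.7% to 93.35%), 84.1% for lower genes (443 of 527) and 92.7% for the rest (1231 of 1328). From 1 to 5 RPKM the shares were 90.8% for higher genes, 74.7% for lower genes and 90.4% for the rest. Under 1 RPKM they were 83.0% for higher genes and 90.6% for the rest, with 0 lower genes. Genes of this band passed the filter only through their values after TNFα, so its 0 lower genes were largely set by the filter.

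Among the 12 genes with the largest ratio, 4 had a peak at their start before TNFα. These were Nfkbia with 985 tags, Tnfaip3 with 1061, Rnd1 with 722 and Gbp2 with 359. Over all genes compared the share was 88.8% (5723 of 6443), and 86.7% (615 of 709) where untreated RPKM was under 1. A large ratio favours a low untreated level, so the count over these 12 is a description only. The chemokine genes of this set and Saa3 and Mmp10 had none at their annotated start in the deposited list, which holds peaks of at least 20-fold enrichment. Of the 12 genes with the lowest ratio, 3 had a peak (Ptn with 1157 tags, Podn with 840 and Kcp with 339), and Eln and Apoe had none in spite of untreated RPKM of 7.68 and 139.7. For these, a peak away from the annotated start would not be counted. H3K4me3 was not measured after TNFα, so no promoter can be followed to 24 hr.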

How the data were processed

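Primary MEFs were profiled by paired-end directional poly(A) RNA-seq, 1 library per time, and by H3K4me3 ChIP-seq. The authors mapped reads to mm9 (RNA with TopHat, ChIP with Bowtie), computed RPKM per RefSeq transcript with their own script in 2 columns per library, and called peaks with MACS; counting strand is not given in the sources used here. The deposited RPKM values are on a larger scale and were divided by 85.6. The deposited peak list gives tag counts and a fold ratio (enrichment) against input per peak; peaks were used as deposited.

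Values were averaged over R1 and R2, filtered at a mean RPKM above 1, and log2 ratios (no pseudocount) were centred on their median. Reads per gene were estimated from the smallest steps of the values and GENCODE transcript lengths, available for 98.1% of genes, with a median of 569 untreated and 696 at 24 hr; intervals are exact (Clopper-Pearson, 95%) and cover counting error only. GC content came from GENCODE mm9 transcripts, promoters from RefSeq GRCm38.p6 by symbol, transcript or synonym. No test was made, since each group is 1 library.

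Named genes are the 12 largest ratios each way with both columns past 2-fold, the 3 largest and the most abundant of each of 31 lists, 6 genes the study names, the 5 highest genes listed at 0 untreated, and other list members named to account for a list after their values were seen. Some genes that this rule takes in are not reported here. The genes and lists were chosen with earlier results of these data known. Alternatives were other centrings, columns, filters, folds, pseudocounts, transcript sums and peak rules. The steps were tested on simulated data. Python 3.11.15, numpy 2.4.6, pandas 2.3.3 and scipy 1.17.1 were used.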

Additional observations from a re-analysis of the deposited data

How the results depend on the processing

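With 1 library per time, no replicate could be left out. No paired analysis was possible because the groups share only the number of their sole library. The counts of 925 higher and 1000 lower genes were within 1.5 times of the main count under 4 scalings, except that centring within bins of GC content gave 579 lower genes (663 higher), and under either column alone or the sum of transcripts. A pseudocount of 1 RPKM gave 402 higher and 573 lower genes, no filter 2529 and 3986, a mean RPKM above 5 gave 331 and 318, a threshold of 1.5-fold 1787 and 1817 and of 3-fold 256 and 315. A minimum of 10 reads in each R1 column, chosen after seeing the data, gave 902 and 985. Without centring all ratios were 0.11 higher, and with scaling to the sum 0.16 higher. With the pseudocount, 4 interferon-stimulated genes and 0 prostaglandin genes were at least 2-fold higher. The share of genes with an H3K4me3 peak was 64.0% (higher) and 48.5% (lower) for peaks of at least 40-fold enrichment, and 83.0% of lower genes had one within 5 kb. Of the 101 genes past 2-fold among those that the rule on named genes takes in, 76 remained past it within bins of GC content, 84 with the pseudocount, 100 with R1 alone and 101 under each other setting, and none of these 101 changed sign. Bbc3, named in addition, went from -1.03 to 0.10 within bins of GC content. Of 8 list medians past 2-fold, 5 remained within bins of GC content, 5 with the pseudocount and 7 with R1 alone. The cause of these shifts was not tested. Genes with few untreated reads limit the ratio: 4 of 906 higher genes with a known length had under 10.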
